A study of Mus musculus with 8 samples.

Results

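Imprinted genes are expressed mainly from the copy inherited from one parent. A list of 40 mouse imprinted genes was looked up by symbol, whatever the gene type, in the GENCODE annotation of the mm9 genome (mouse release 1). Of these, 38 were found among the 37273 annotated genes on nuclear chromosomes, namely 33 protein-coding genes, 4 lincRNAs and 1 processed transcript (H19). Peg13 was not found by its symbol, and Kcnq1ot1 was placed through its RefSeq promoter only and is not counted among the 38. The members fall into 18 loci. The list uses no measured value of these libraries.

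5-hydroxymethylcytosine (5hmC) was mapped by GLIB-Seq, in which 5hmC is glucosylated, oxidised with periodate and tagged with biotin, so that fragments carrying it are captured and sequenced. There is 1 library for each of 6 conditions. They are E14 embryonic stem cells (ESCs), an established mouse line, primary mouse embryonic fibroblasts (MEFs) of C57BL/6 mice, which the labels date to embryonic day 11 and the methods to a later day, brain and liver of C57BL/6 mice at 8 weeks of age, and E14 cells given a short hairpin RNA, either the shGFP control or shSuz12, which targets Suz12, a core subunit of Polycomb repressive complex 2. The sources used here do not name the Suz12 hairpin behind this library, the level of Suz12 in these cells was not measured here, and the RNA-Seq libraries of the same cells were not analysed here. Brain and liver are mixtures of cells, so that fewer cells with a mark and less mark per cell cannot be told apart, and a peak does not tell the parental copies apart. E14 cells derive from another mouse strain than C57BL/6, so that cell type and strain cannot be told apart either.

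5hmC is made from 5-methylcytosine by the Tet enzymes. Imprinted clusters are controlled by short CpG-rich regions that receive methylation in the egg or the sperm and keep it on that copy in all somatic cells, so that both a methylated and an unmethylated copy are present in every cell. Such a region often is the promoter of a long non-coding RNA or, at H19, a set of binding sites of the insulator protein CTCF between a gene and its enhancers.

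Each library is a list of peaks with a MACS score, read as the negative log10 of a p-value multiplied by 10. The lists covered between 3.15% (shSuz12) and 7.83% (MEF) of the genome, with 6.75% in ESCs, 7.34% in brain, 6.39% in liver and 4.56% in shGFP. The score of the weakest peak was 80 for ESCs and liver, 50.02 for shGFP, 30.34 for shSuz12 and 30 for MEFs and brain, so that a peak under 80 could not appear in the first pair of lists. The lists carry no read counts, and the depth is unknown. With 1 library per condition no test between conditions was possible and there is no spread between replicates. In the gene spans of the members 249 peaks were found in ESCs, 349 in MEFs, 245 in brain, 153 in liver, 172 in shGFP and 166 in shSuz12. Of these, 249, 144, 42, 153, 91 and 26 had a score of at least 80.

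The control region of H19 and Igf2 carried no peak in any of the 6 libraries. The window from 4 to 2 kb upstream of the H19 start (chr7:149766049-149768048, mm9) was covered over 0 of 2000 bp in each list. The CTCF core motif known from this region, 14 bases of which 3 are free to vary, was searched on both strands, and 4 matches were found, at -3891, -3647, -2621 and -2166 bp from the start. Of the same window upstream of all 37273 genes, 24 (0.0644%) held any match, and the window of H19 was the only one with as many as 4. The 4 sites are shown on the minus strand, the strand of H19, with the motif in capitals and 15 bases on each side, because this is among the best known imprinting control regions and it stayed free of peaks in every library.
H19 site at -3891 bp (chr7:149767924-149767967, minus strand): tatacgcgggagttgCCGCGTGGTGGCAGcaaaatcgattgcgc
H19 site at -3647 bp (chr7:149767680-149767723, minus strand): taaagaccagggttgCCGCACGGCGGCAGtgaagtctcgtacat
H19 site at -2621 bp (chr7:149766654-149766697, minus strand): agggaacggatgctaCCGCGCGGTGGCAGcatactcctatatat
H19 site at -2166 bp (chr7:149766199-149766242, minus strand): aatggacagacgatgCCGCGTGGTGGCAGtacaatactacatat

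The promoters of 3 genes with germline methylation at the start and of Dlk1, which has none, are shown next. The former had no peak in the printed bases and the latter did. The 3 do not stand for all such starts. Within 1 kb of the start ESCs had 851 bp covered in Plagl1, 825 in Peg10, 723 in Sgce and 646 in Nap1l5. There liver had 2000 bp in Nnat and shGFP 607 bp in Airn, while Zrsr1, Impact and Snrpn had no peak. Kcnq1ot1 had 578 bp in MEFs and 451 bp in shSuz12, outside the printed bases. The sequences are the 250 bases upstream of a start, read 5′ to 3′ on the strand of the gene, with each CpG in capitals. The starts of Kcnq1ot1 and Mest are those of RefSeq, placed on mm9 by an exact match. None of the 6 lists covered a base of the first 3.
Kcnq1ot1 upstream of the RefSeq start (chr7:150482453-150482702, minus strand): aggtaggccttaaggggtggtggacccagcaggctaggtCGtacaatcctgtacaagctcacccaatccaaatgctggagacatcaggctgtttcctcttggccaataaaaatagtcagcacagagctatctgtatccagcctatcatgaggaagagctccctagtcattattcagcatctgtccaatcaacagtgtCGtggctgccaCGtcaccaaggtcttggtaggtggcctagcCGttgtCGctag
Peg3 upstream of the annotated start (chr7:6683133-6683382, minus strand): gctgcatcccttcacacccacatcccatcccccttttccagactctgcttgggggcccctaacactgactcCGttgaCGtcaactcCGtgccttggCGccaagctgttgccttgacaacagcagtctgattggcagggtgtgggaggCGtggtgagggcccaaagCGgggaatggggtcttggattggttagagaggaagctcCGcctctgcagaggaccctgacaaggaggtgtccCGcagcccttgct
Mest upstream of the RefSeq start (chr6:30687803-30688052, plus strand): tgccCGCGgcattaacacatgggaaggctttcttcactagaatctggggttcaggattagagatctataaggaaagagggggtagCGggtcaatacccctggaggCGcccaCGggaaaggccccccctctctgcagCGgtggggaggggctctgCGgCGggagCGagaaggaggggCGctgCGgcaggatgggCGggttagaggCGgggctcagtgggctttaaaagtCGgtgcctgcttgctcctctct
In Dlk1, whose copy from the father is expressed, a peak reached the same stretch in ESC lists. All 250 bases of the Dlk1 stretch lay under a peak in ESCs and in shGFP and none in the other 4 libraries, shSuz12 included. It held 8 CpGs, as did that of Peg3, against 14 in Mest and 5 in Kcnq1ot1.
Dlk1 upstream of the annotated start (chr12:110690783-110691032, plus strand): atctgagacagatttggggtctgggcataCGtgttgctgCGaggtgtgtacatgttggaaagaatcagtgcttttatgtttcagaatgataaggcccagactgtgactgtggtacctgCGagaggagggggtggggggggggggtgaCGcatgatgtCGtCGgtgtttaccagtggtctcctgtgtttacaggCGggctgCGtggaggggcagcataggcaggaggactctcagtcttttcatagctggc

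No base within 1 kb of a member's start was covered in all 6 libraries. Inside the gene spans such stretches were found in Kcnq1, Gnas, Igf2r, Airn, Slc38a4 and Trappc9. The middle of the Slc38a4 stretch, in the locus of 20 kb or more with the highest coverage in every library but brain, and of an Igf2r stretch are shown as examples of sequence under a peak in every library, and the middle of a CpG-rich region inside Inpp5f as an example of sequence covered over its full length in liver and not at all in MEFs, brain or shGFP. The 300 bases printed from it lay under a peak in liver alone. CpGs are in capitals. The Igf2r stretch is made largely of a short repeated unit. All of these sequences were chosen after the values had been seen.
Slc38a4 stretch under peaks of 6 libraries (chr15:96879566-96879865, minus strand): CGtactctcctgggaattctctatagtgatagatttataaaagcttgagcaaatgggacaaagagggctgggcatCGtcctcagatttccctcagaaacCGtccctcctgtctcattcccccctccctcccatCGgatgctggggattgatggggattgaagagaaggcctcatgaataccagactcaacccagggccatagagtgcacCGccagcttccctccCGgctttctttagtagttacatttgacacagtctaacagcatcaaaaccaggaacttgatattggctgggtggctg
Igf2r stretch under peaks of 6 libraries (chr17:12880740-12881039, minus strand): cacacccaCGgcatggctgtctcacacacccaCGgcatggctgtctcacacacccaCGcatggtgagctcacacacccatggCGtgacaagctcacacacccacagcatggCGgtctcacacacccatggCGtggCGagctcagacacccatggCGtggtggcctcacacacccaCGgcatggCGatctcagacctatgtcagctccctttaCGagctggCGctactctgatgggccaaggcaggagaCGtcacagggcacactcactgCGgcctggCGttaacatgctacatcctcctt
Inpp5f middle of the internal CpG-rich region (chr7:135831701-135832000, plus strand): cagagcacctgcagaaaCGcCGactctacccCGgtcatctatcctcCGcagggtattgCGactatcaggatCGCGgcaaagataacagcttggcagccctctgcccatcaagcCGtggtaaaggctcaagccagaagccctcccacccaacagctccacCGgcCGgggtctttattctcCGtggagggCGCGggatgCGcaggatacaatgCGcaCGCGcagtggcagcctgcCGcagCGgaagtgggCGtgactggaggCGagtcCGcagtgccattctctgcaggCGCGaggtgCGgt

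A peak in the window of 1 kb on either side of the transcription start (TSS) was found in 14 of 38 members in ESCs (36.8%, exact 95% interval 21.8 to 54.0%), against 29% of all genes. The count was 7 in MEFs (18.4%, 7.74 to 34.3%), 5 in brain and 5 in liver (13.2%, 4.41 to 28.1%), where 26.7%, 19.2% and 25% of all genes had such a peak. It was 11 in shGFP (28.9%, 15.4 to 45.9%) and 12 in shSuz12 (31.6%, 17.5 to 48.7%), against 24.2% and 19.7% of all genes. The intervals, here and below, are Clopper-Pearson intervals and cover counting error only. The share of all genes lies within the members' interval in each library, so that no excess or lack over all genes was detectable with 38 members. The lists end at different scores, and the order of the libraries depends on that. With a common score of at least 80 the counts were 14 in ESCs, 4 in MEFs, 2 in brain, 5 in liver, 6 in shGFP and 2 in shSuz12.

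Within the whole gene span a peak was found in 27 members in ESCs, 24 in MEFs, 19 in brain, 17 in liver, 25 in shGFP and 26 in shSuz12. The matching shares of all genes were 50.2%, 44.8%, 44%, 41.9%, 45.9% and 45%. The members are long, and a long span meets a peak more easily. Among the 25 members of at least 5 kb the median share of the span covered was 12.98% in ESCs, 15.5% in MEFs, 10.6% in brain, 1.24% in liver, 6.38% in shGFP and 5.30% in shSuz12. The medians of all genes of that size were 11.1%, 7.05%, 9.81%, 7.97%, 6.18% and 4.52%. The medians of the large members were thus above those of large genes in 5 libraries, most so in MEFs, and below in liver. These differences were not tested. Pooled over all bases of the spans, the large members were covered over 11.37%, 18.2%, 15.03%, 9.73%, 6.799% and 4.895%. All genes of that size were covered over 11.39%, 11.72%, 13.57%, 12.47%, 7.32% and 5.17%. The pooled share was thus above that of large genes in MEFs and brain only. The large members had a median span of 57765 bp against 23725 bp for large genes, so that length was not matched. Over all 38 members the medians were 10.5%, 12%, 1.05%, 0%, 6.23% and 4.53%. Among the 20 members expressed from the paternal copy a peak in the span was found in 13 in ESCs, 10 in MEFs, 7 in brain, 5 in liver, 12 in shGFP and 13 in shSuz12, and among the 15 expressed from the maternal copy in 11, 11, 9, 9, 10 and 10. The median span was 11861.5 bp for the paternally and 34161 bp for the maternally expressed members. These counts were not matched for length, so that length and expressed copy cannot be told apart. The expressed copy of the remaining members differs between tissues or transcripts.

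**Figure D1:**
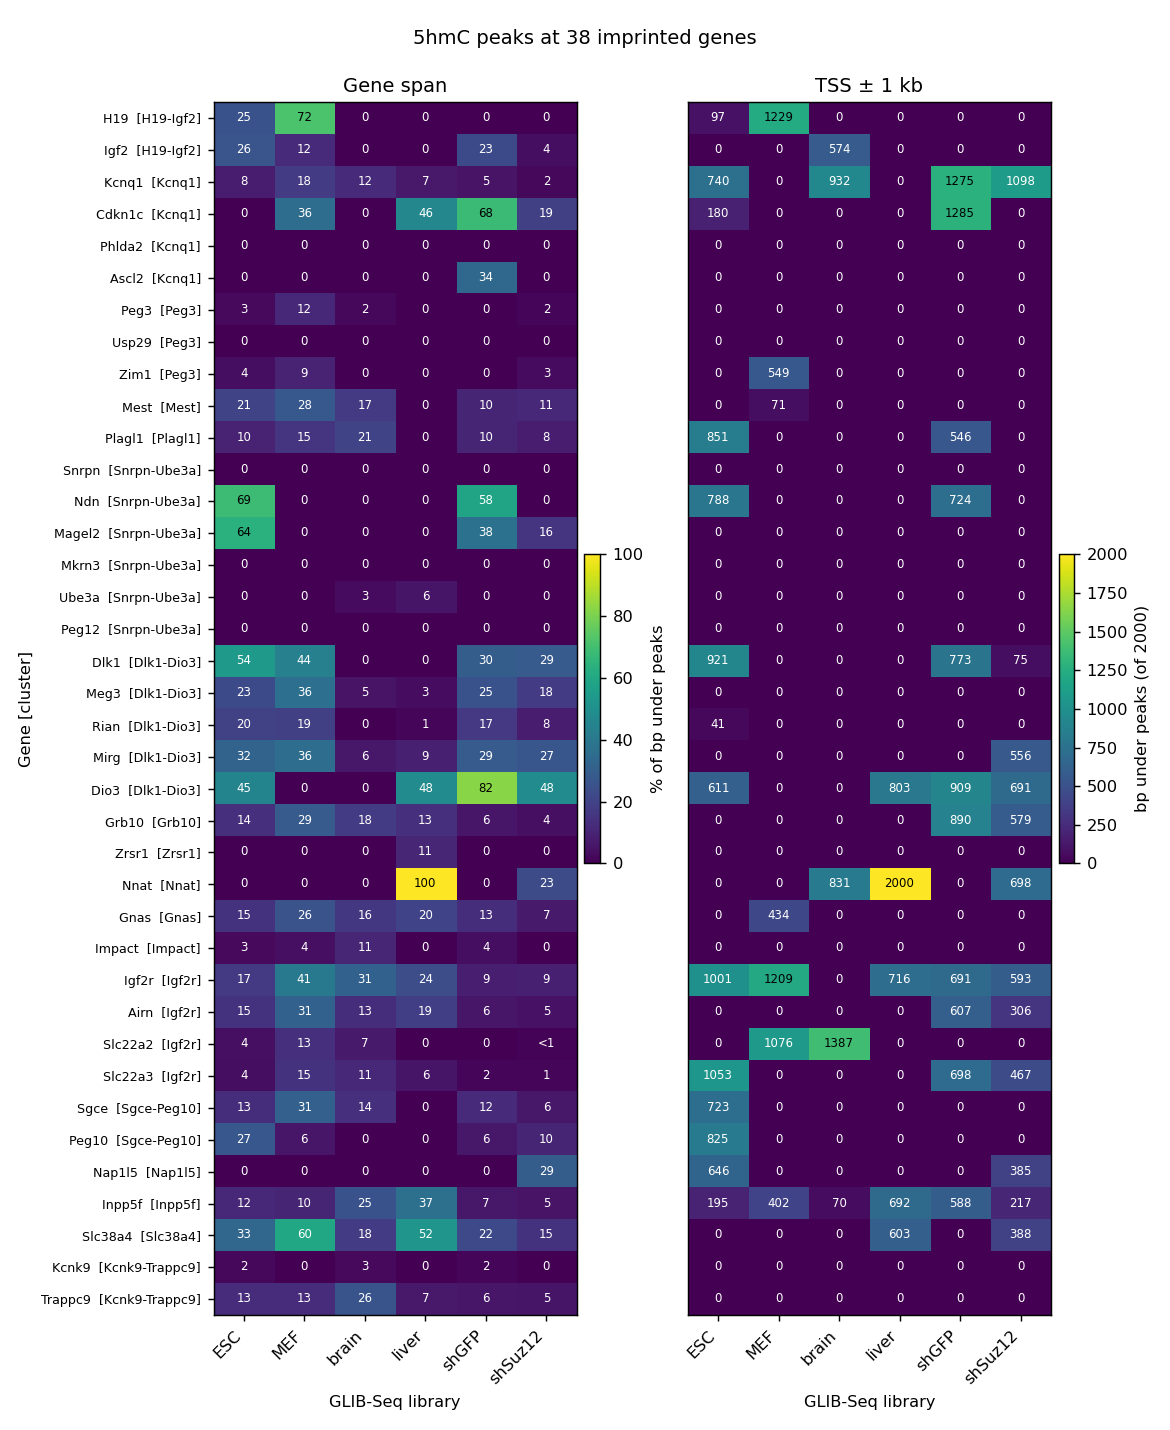
5hmC peaks at the 38 members, in rows with their locus in brackets, in the 6 libraries in columns. The left panel gives the percent of the gene span under peaks and the right panel the bp under peaks within 1 kb of the TSS, of 2000 bp. Nnat is covered over 100% of its span in liver, Slc38a4 is covered in all 6 libraries, and the rows of Snrpn, Mkrn3 and Peg12 hold 0 throughout.

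In 11 members the gene span held a peak in all 6 libraries, as in 25.2% of all genes: Kcnq1, Meg3, Mirg, Grb10, Gnas, Igf2r, Airn, Slc22a3, Inpp5f, Slc38a4 and Trappc9. In 5 members no library had a peak, as in 37.6% of all genes: Phlda2, Usp29, Snrpn, Mkrn3 and Peg12. A TSS peak was found in no library in 14 members, against 46.5% of all genes, and in all 6 libraries only in Inpp5f, against 2.62% of all genes. In Inpp5f, which encodes an inositol phosphatase, the 6 peaks lay on either side of the start. Those of ESCs (805 to 1811 bp from the TSS), MEFs (598 to 2026), brain (930 to 2124) and shSuz12 (783 to 1904) lay downstream of the start. Those of liver (-1244 to -309) and shGFP (-1244 to -413) lay upstream of it.

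H19, a maternally expressed non-coding RNA, and Igf2, the paternally expressed growth factor beside it, had listed peaks in the gene body in ESCs and MEFs and none in brain and liver. Of the H19 span, 25.0% was covered in ESCs, 71.5% in MEFs and 0% in brain, liver, shGFP and shSuz12. The ESC share came from a single peak, missing from shGFP and shSuz12, whose lists reach lower scores. The spans of both H19 and Igf2 thus lacked any peak in brain and liver. The H19 start itself was flanked in MEFs by a peak from -1133 to -28 bp (score 75.5) and another from 744 to 2769 bp (score 192), and met in ESCs by the edge of a peak from 904 to 1558 bp (score 102). Of the Igf2 span, 26.4% was covered in ESCs, 12.5% in MEFs, 22.6% in shGFP and 3.55% in shSuz12. Its strongest peak had a score of 1033 in ESCs, 117 in MEFs, 177 in shGFP and 36.5 in shSuz12. Brain had a peak upstream of Igf2, from -1249 to -426 bp, with a score of 33.2. Across the 91.3 kb from H19 to Igf2 the coverage was 1.35 times that of the genome in ESCs, 1.90 in MEFs, 0.433 in brain, 0.235 in liver, 1.46 in shGFP and 0.316 in shSuz12.

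In the Kcnq1 locus the paternally expressed RNA Kcnq1ot1 starts inside Kcnq1, a potassium channel gene, and its promoter is methylated on the maternal copy. Within 1 kb of the RefSeq start of Kcnq1ot1, 578 bp were covered in MEFs, 451 bp in shSuz12 and 0 bp in ESCs, brain, liver and shGFP. The CpG-rich region next to that start (chr7:150481051-150482400) was covered over 0 of its 1350 bp in all 6 libraries. The Kcnq1 span around it was covered over 8.11% in ESCs, 17.7% in MEFs, 12.4% in brain, 6.95% in liver, 5.16% in shGFP and 2.17% in shSuz12. The CpG-rich region thus lay bare inside a gene that carried between 12 and 56 peaks in each library.

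Cdkn1c, the cyclin-dependent kinase inhibitor p57, varied most among the members of the Kcnq1 locus. Its span was covered over 0% in ESCs, 35.6% in MEFs, 0% in brain, 46.1% in liver, 68.3% in shGFP and 18.99% in shSuz12. Near its start ESCs had an upstream peak from -3077 to -820 bp (score 510), and shGFP had a peak from -1372 to -770 bp (score 126) and another across the start from -116 to 938 bp (score 69.6). No other library had a peak within 1 kb of that start. Ascl2, a basic helix-loop-helix factor of the trophoblast, was covered over 33.8% in shGFP and 0% in the other 5 libraries, and Phlda2, which restrains placental growth, over 0% in all 6. ESCs and shGFP cells are the same line, and they differed at both Cdkn1c and Ascl2.

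Peg3, a paternally expressed zinc-finger gene, starts head to head with Usp29, and the shared CpG-rich promoter is methylated on the maternal copy. No library had a peak within 1 kb of the Peg3 start or of the RefSeq start of Usp29. The body of Peg3 was covered over 2.58% in ESCs, 11.5% in MEFs, 2.10% in brain, 0% in liver, 0% in shGFP and 1.95% in shSuz12. Zim1, its maternally expressed neighbour, was covered over 3.78% in ESCs, 9.44% in MEFs, 3.07% in shSuz12 and 0% in brain, liver and shGFP. The annotated span of Usp29 had no peak in any library. The 230738 bp between Peg3 and that span held 11 peaks in ESCs, 46 in MEFs, 3 in brain, 4 in liver, 8 in shGFP and 8 in shSuz12. Over the whole locus the coverage was 2.18 times that of the genome in MEFs and between 0.150 and 0.639 times in the other libraries. The Peg3 locus was thus above the genome in MEFs alone of the 6 libraries.

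Mest, a paternally expressed hydrolase-like gene, was covered over 20.7% in ESCs, 27.6% in MEFs, 17.1% in brain, 0% in liver, 10.3% in shGFP and 11.1% in shSuz12. At its germline-methylated RefSeq start no library had a peak within 1 kb, and the CpG-rich region there was covered over 0 of 900 bp. At a second RefSeq start, 9959 bp from the annotated TSS and with fewer CpGs, 1601 bp were covered in ESCs, 465 in MEFs, 595 in shGFP, 1107 in shSuz12 and 0 in brain and liver. In Mest the peaks of the ESC lists and of MEFs thus included an alternative start and not the germline-methylated start.

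Sgce, which encodes epsilon-sarcoglycan, and Peg10, a gene derived from a retrotransposon, start next to each other and are both expressed from the paternal copy. They shared a peak in ESCs (score 174), from 175 to 1425 bp of the Peg10 start, and no other library had a peak within 1 kb of either start. Sgce was covered over 12.98% in ESCs, 30.8% in MEFs, 13.7% in brain, 0% in liver, 11.9% in shGFP and 6.43% in shSuz12. Peg10 was covered over 27.1% in ESCs, 6.14% in MEFs, 6.38% in shGFP, 10.4% in shSuz12 and 0% in brain and liver. In the 86.2 kb of the locus liver had 0 peaks and the other libraries between 9 and 22.

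Plagl1, a paternally expressed zinc-finger gene, had a peak at its CpG-rich start in ESCs (-138 to 712 bp, score 151) and in shGFP (134 to 679 bp, score 58.4) and in none of the other 4 libraries. Its span was covered over 9.55% in ESCs, 15.5% in MEFs, 20.6% in brain, 0% in liver, 10.3% in shGFP and 8.07% in shSuz12. Liver thus had no peak in Plagl1, Mest, Sgce or Peg10. Nap1l5, related to nucleosome assembly proteins, had an upstream peak in ESCs (-849 to -204 bp, score 80.7) and a peak over its body in shSuz12 (616 to 1172 bp, score 37.0), with a covered share of 29.4% there and 0% in the other 5 libraries.

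The locus from Ube3a to Peg12, which corresponds to the human Prader-Willi and Angelman region, was nearly empty of peaks. In 3125 kb there were 2 peaks in ESCs, 0 in MEFs, 5 in brain, 8 in liver, 2 in shGFP and 2 in shSuz12. The covered share was 0.132%, 0%, 0.110%, 0.183%, 0.0871% and 0.0412%, or between 0 and 0.0287 times that of the genome. Among 791 autosomal windows of 3 Mb, the share with as little coverage was 5.82% in ESCs, 0.759% in MEFs, 3.16% in brain, 8.85% in liver, 2.40% in shGFP and 0.885% in shSuz12. The locus had 5.49 CpGs per kb, against a median of 8.17 per kb over the windows, and 10.9% of windows had as few. The flanks were also sparse in most libraries. The 1 Mb before and after the locus were covered over 0.0874% and 0.101% in ESCs, 0.1202% and 0.1235% in liver, 0.133% and 0.0666% in shGFP and 0.0586% and 0.137% in shSuz12, but over 2.89% and 0.468% in MEFs and 2.02% and 0.555% in brain. How much of the locus can be mapped by unique reads was not measured.

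Snrpn, a paternally expressed splicing protein gene with the control element of the region at a start of the gene, had no peak in its 157718 bp in any library. Of the 1544 genes of 100 to 200 kb, 71 (4.60%) had none, Snrpn included. The nearest peak to the annotated Snrpn start was 710442 bp away in brain, 713234 bp away in liver and over 1 Mb away in the other 4 libraries. That annotated start had 8 CpGs in 2 kb, and a RefSeq start 135020 bp from it had 44. Which start is the control element was not determined here. Around all 4 of its RefSeq starts 0 bp were covered within 1 kb.

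Ndn and Magel2, intronless genes of the MAGE family, carried both peaks of ESCs and both of shGFP in this locus, while of the pair in shSuz12 1 lay in Magel2 and the other between Snrpn and Ndn. Ndn was covered over 68.7% in ESCs (a peak from 212 to 1346 bp, score 437), 58.4% in shGFP (276 to 1240 bp, score 216) and 0% in MEFs, brain, liver and shSuz12. Magel2 was covered over 63.9% in ESCs (1348 to 4327 bp, score 916), 37.7% in shGFP, 15.6% in shSuz12 and 0% in the others. Mkrn3 and Peg12, intronless genes close by, were covered over 0% in all 6 libraries although both have CpG-rich starts. Ube3a, a ubiquitin ligase gene expressed from the maternal copy in neurons, had peaks in other libraries, with 2.97% covered in brain by 3 peaks, 5.84% in liver by 6 peaks and 0% in the other 4. The highest score there was 37.8 in brain and 237 in liver. Peaks as weak as those of brain could not be listed in ESCs or shGFP, whose lists end at 80 and 50.02.

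The Dlk1-Dio3 locus held many more peaks, with 111 in ESCs, 150 in MEFs, 49 in brain, 89 in liver, 85 in shGFP and 100 in shSuz12 over 828.3 kb. Its coverage was 1.96, 2.33, 0.880, 1.99, 2.05 and 2.39 times that of the genome, in the same order. The covered share of the locus was 13.2%, 18.3%, 6.45%, 12.7%, 9.34% and 7.51%. That of the summed spans of all genes was 11.5%, 11.7%, 13.5%, 12.5%, 7.42% and 5.21%. Dlk1 encodes a transmembrane protein related to Notch ligands, Meg3, Rian and Mirg are maternally expressed non-coding RNAs, and Dio3 encodes a thyroid hormone deiodinase. All but Dio3 were covered less in brain and liver than in the other libraries. Dlk1 was covered over 54.3% in ESCs, 43.7% in MEFs, 0% in brain and liver, 29.6% in shGFP and 28.9% in shSuz12. Meg3 was covered over 22.6%, 36.3%, 5.33%, 3.27%, 25.3% and 17.9%, in the order ESC, MEF, brain, liver, shGFP and shSuz12. In that order Rian was covered over 19.8%, 18.8%, 0%, 1.24%, 16.6% and 8.13%, and Mirg over 31.8%, 35.7%, 6.47%, 8.74%, 28.6% and 26.7%. In each of these 4 genes brain and liver were below the other 4 libraries.

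At the Dlk1 start ESCs had peaks from -682 to 158 bp (score 134) and from 920 to 1970 bp (score 308), and shGFP from -538 to 134 bp (score 59.3) and from 900 to 1866 bp (score 123). In shSuz12 only the downstream peak was found, from 925 to 1512 bp (score 52.6). MEFs, brain and liver had no peak within 1 kb of that start, although Dlk1 was well covered in MEFs. No library had a peak within 1 kb of the annotated Meg3 start, which is methylated on the paternal copy, and from it to the nearest peak there were 1624 bp in MEFs and between 4773 and 7366 bp in the others. Dio3 was covered over 45.1% in ESCs, 0% in MEFs and brain, 48.2% in liver, 82.2% in shGFP and 48.1% in shSuz12.

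The control region of this locus lies between Dlk1 and Meg3, an interval of 77664 bp (chr12:110701547-110779210). It held 7 peaks in ESCs, 22 in MEFs, 5 in brain, 9 in liver, 6 in shGFP and 9 in shSuz12. They covered 8.61%, 26.0%, 6.85%, 17.7%, 8.43% and 6.67% of the interval. The element methylated in sperm lies in the part of the interval near Meg3. There liver had 4 peaks between -15393 and -7678 bp from the Meg3 start (scores 90.3 to 341), and brain had a peak from -15399 to -14373 bp (score 53.3) and another from -8491 to -7366 bp (score 37.7). MEFs had 7 peaks between -15262 and -1624 bp (scores 31.7 to 137), and shSuz12 had a peak from -5545 to -5192 bp (score 76.2). In ESCs the last peak before Meg3 ended at -20048 bp, and in shGFP at -20075 bp. The 529612 bp between Mirg and Dio3 were covered over 11.2%, 15.6%, 7.69%, 15.9%, 6.42% and 5.75%. Liver, low in Dlk1, Meg3, Rian and Mirg, was thus above ESCs in both intervals between the genes, on the percent scale.

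**Figure D2:**
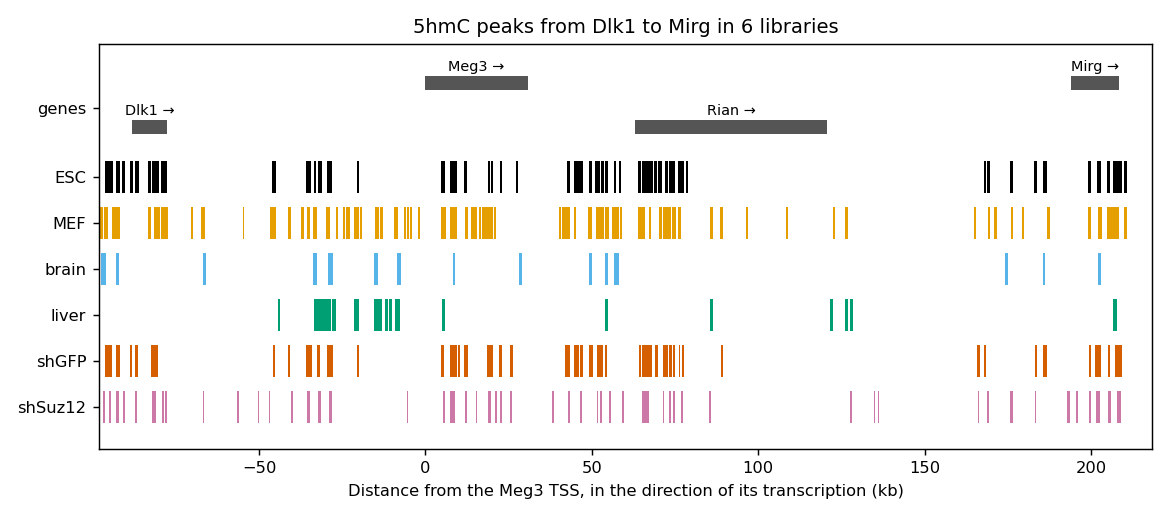
Peaks of the 6 libraries (1 row each) from Dlk1 to Mirg, by distance in kb from the Meg3 TSS, with the genes as grey bars on top and arrows for their direction. Dio3, farther to the right, is not drawn. Brain and liver have no peak in Dlk1, while liver has 9 peaks between Dlk1 and Meg3.

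In the Igf2r locus the paternally expressed RNA Airn starts in an intron of Igf2r, a receptor that removes Igf2, and runs across the Igf2r start on the opposite strand. The germline-methylated Airn start had a peak in shGFP (-109 to 497 bp, score 65.6) and in shSuz12 a pair of peaks at the edges of its window (-1338 to -776 bp, score 45.2, and 919 to 1458 bp, score 37.8). ESCs, MEFs, brain and liver had none within 1 kb. The Igf2r start, methylated later in development on the paternal copy, had a peak in ESCs, MEFs, liver, shGFP and shSuz12, with 1001, 1209, 716, 691 and 593 of 2000 bp covered, and 0 bp in brain. It held the only CpG-rich region of the members with a peak in 5 libraries.

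Gene bodies in the Igf2r locus were covered most in MEFs. Igf2r was covered over 16.9% in ESCs, 40.5% in MEFs, 31.2% in brain, 23.8% in liver, 8.51% in shGFP and 8.70% in shSuz12. The 28354 bp that lie in both Igf2r and Airn were covered over 26.4%, 56.1%, 36.9%, 40.3%, 16.7% and 12.8%, and the 90458 bp of Airn beyond Igf2r over 10.9%, 23.0%, 5.78%, 11.9%, 2.94% and 2.24%. The overlap thus had a higher covered share than the rest of Airn in each of the 6 libraries. The counts there belong to both genes, since peaks carry no strand. Slc22a3, an organic cation transporter gene, was covered over 3.90%, 14.7%, 11.1%, 5.53%, 1.58% and 1.22%, and its relative Slc22a2 over 3.95%, 13.3%, 7.12%, 0%, 0% and 0.822%. Slc22a3 had a TSS peak in ESCs, shGFP and shSuz12, and Slc22a2 in MEFs and brain, so that their starts were not covered in any common library.

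**Figure D3:**
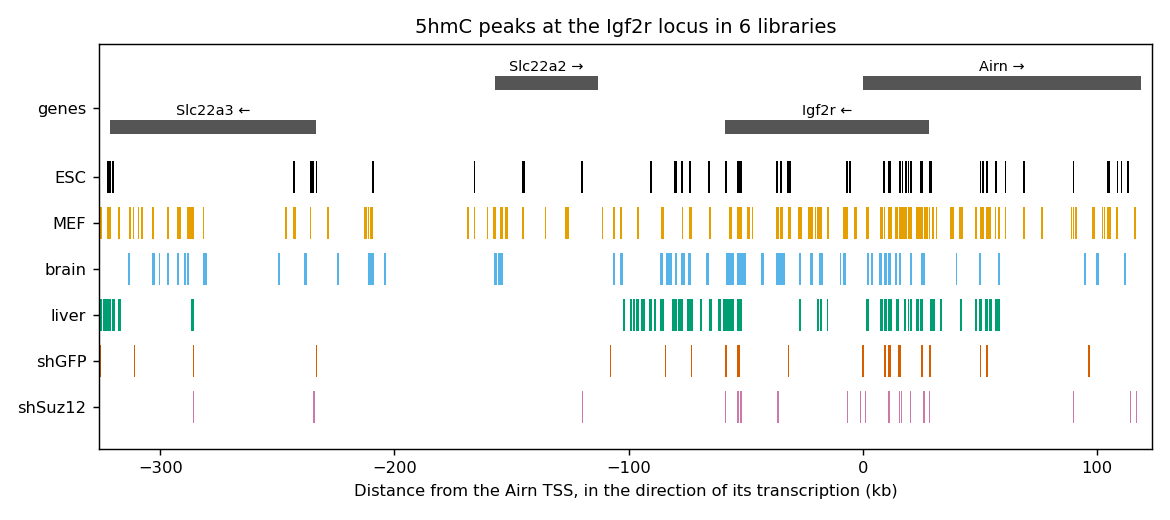
Peaks of the 6 libraries (1 row each) across the Igf2r locus, by distance in kb from the Airn TSS, with the genes as grey bars on top and arrows for their direction. The covered share of the Igf2r and Airn overlap runs from 12.8% in shSuz12 to 56.1% in MEFs.

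Nnat, a paternally expressed proteolipid gene best known from brain, had the widest range of coverage of all members. It was covered over 100% of its 2445 bp in liver and 0% in ESCs, MEFs, brain and shGFP, with 23.2% in shSuz12. The liver peak ran from -3563 to 4094 bp of the TSS with a score of 2030. In brain a peak lay upstream, from -1055 to -170 bp (score 87.3), and in shSuz12 from -984 to -287 bp (score 38.8). Of all genes, 97.9% had a smaller covered share than Nnat in liver.

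Gnas, which encodes the stimulatory G protein alpha subunit, has several promoters that are methylated on different parental copies. Its span was covered over 14.6% in ESCs, 25.5% in MEFs, 16.2% in brain, 20.2% in liver, 12.9% in shGFP and 7.33% in shSuz12. Its highest score was 2813 in liver against 812 in ESCs, 479 in MEFs, 234 in brain, 148 in shGFP and 85.4 in shSuz12. Of the 8 CpG-rich regions in and near Gnas none was met by a peak of ESCs, MEFs or brain. A region of 2500 bp whose middle lies 43880 bp from the annotated TSS was covered over 1289 bp in liver, 638 bp in shGFP and 74 bp in shSuz12. All of the Gnas peaks of ESCs, MEFs and brain thus lay outside its CpG-rich regions.

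Grb10, an adaptor of insulin and growth factor receptors, was covered over 13.6% in ESCs, 28.8% in MEFs, 17.8% in brain, 13.4% in liver, 6.24% in shGFP and 4.28% in shSuz12. At its annotated start shGFP (-98 to 791 bp, score 96.7) and shSuz12 (91 to 669 bp, score 36.0) had a peak and the other 4 libraries none. A CpG-rich region of 1550 bp inside the gene (chr11:11925351-11926900), 12560 bp from that start, behaved differently, with 1022 bp covered in ESCs, 831 in MEFs, 0 in brain, 1126 in liver, 647 in shGFP and 0 in shSuz12. Zrsr1, a splicing factor gene derived by retroposition, had a peak in liver (score 99.8, 10.6% of its span) and none in the other 5 libraries, and no peak within 1 kb of its start. Impact, a regulator of translation, was covered over 2.72% in ESCs, 4.20% in MEFs, 10.6% in brain, 3.55% in shGFP and 0% in liver and shSuz12, with no peak at its start in any library.

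Slc38a4, an amino acid transporter gene, had the highest covered share relative to the genome of any locus over 20 kb in ESCs, MEFs, liver, shGFP and shSuz12. It was covered over 33.0% in ESCs, 59.6% in MEFs, 17.7% in brain, 52.3% in liver, 21.9% in shGFP and 14.6% in shSuz12. Relative to the genome this was 4.89, 7.61, 2.41, 8.17, 4.80 and 4.65 times. In liver its strongest peak had a score of 2972. Its annotated start had an upstream peak in liver (-1128 to -397 bp, score 86.2) and in shSuz12 (-586 to -199 bp, score 45.3) and none in the other 4 libraries.

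Inpp5f and Trappc9 were covered most in an adult tissue. Inpp5f was covered over 11.5% in ESCs, 10.5% in MEFs, 25.3% in brain, 37.0% in liver, 6.57% in shGFP and 5.30% in shSuz12. Its internal CpG-rich region (chr7:135831401-135832300), shown above, was covered over 113, 0, 0, 900, 0 and 141 of 900 bp in the same order. Trappc9, a subunit of a vesicle tethering complex and the longest member, held 69 peaks in ESCs, 68 in MEFs, 97 in brain, 33 in liver, 34 in shGFP and 44 in shSuz12. The covered share of Trappc9 was 12.7%, 12.7%, 25.9%, 7.0%, 5.97% and 5.48%, and no library had a peak at its start. Kcnk9, a maternally expressed potassium channel gene in the same locus, had a single peak in ESCs, brain and shGFP (2.24%, 2.70% and 1.58% covered) and none in MEFs, liver and shSuz12.

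**Figure D4:**
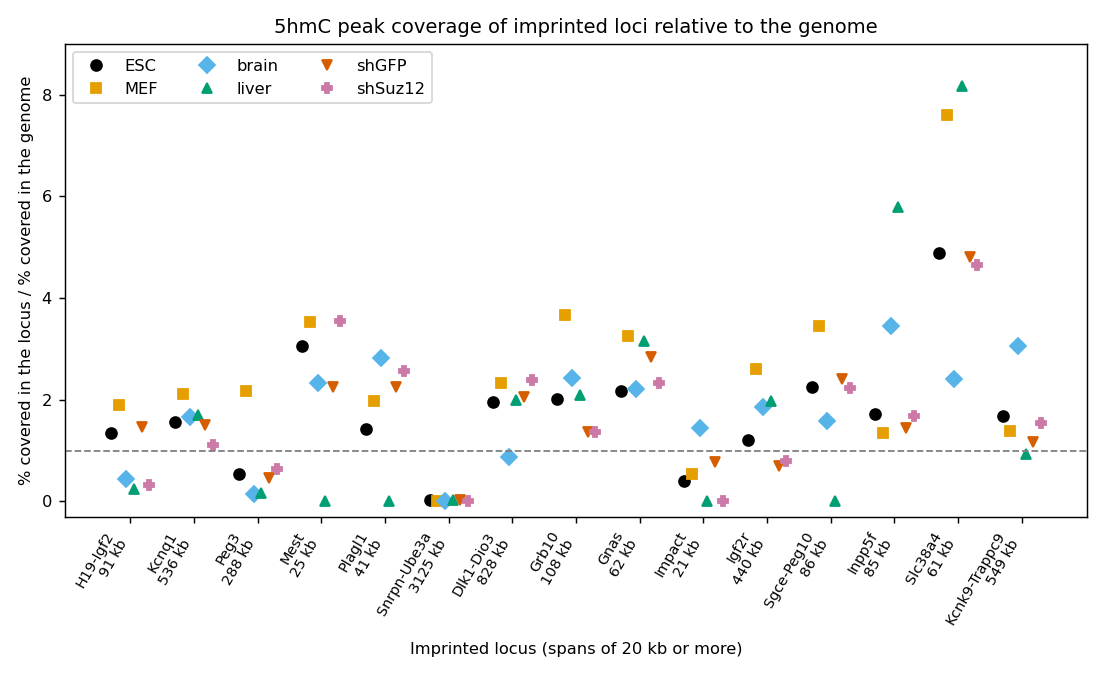
Percent covered of each locus of 20 kb or more divided by the percent of the genome covered, with 1 symbol for each of the 6 libraries and a dashed line at 1. The line stands for the whole genome, and gene spans in general lie above it (11.5% against 6.75% covered in ESCs). Slc38a4 lies between 2.41 and 8.17, while the Snrpn-Ube3a locus reaches at most 0.0287 in any library.

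CpG-rich regions were defined as merged 500 bp windows with a CpG observed/expected ratio over 0.75 and a GC content over 55%. In and within 5 kb of the members there were 40. A peak was found in 11 of them in ESCs (27.5%), 4 in MEFs (10%), 3 in brain (7.5%), 8 in liver (20%), 17 in shGFP (42.5%) and 18 in shSuz12 (45%). Of the 12911 such regions near all genes, 20.1%, 17.2%, 10.8%, 20.9%, 22.1% and 12.99% had a peak, in the same order. Some overlaps near members were short. With an overlap of at least 200 bp the members' counts were 14 in shGFP and 9 in shSuz12. With a score of at least 80 they were 9 in shGFP and 3 in shSuz12. The shares near all genes were not recomputed with these choices. Of the members' regions 15 (37.5%) had no peak in any library, against 54.3% near all genes, and 0 had a peak in all 6. The 15 included those at the starts of Kcnq1ot1, Mest, Zrsr1, Phlda2, Ube3a, Mkrn3, Peg12, Kcnk9 and Gnas, and a region near Impact. Regions of a single gene such as Gnas are not independent of each other. A region of 700 bp that begins shortly downstream of the Trappc9 start was covered over 700 bp in ESCs, brain and shGFP, 691 bp in shSuz12 and 0 bp in MEFs and liver. The starts of the members are rich in CpG, with a median of 81.5 CpGs in 2 kb against 61 over protein-coding genes and 32 over all genes.

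**Figure D5:**
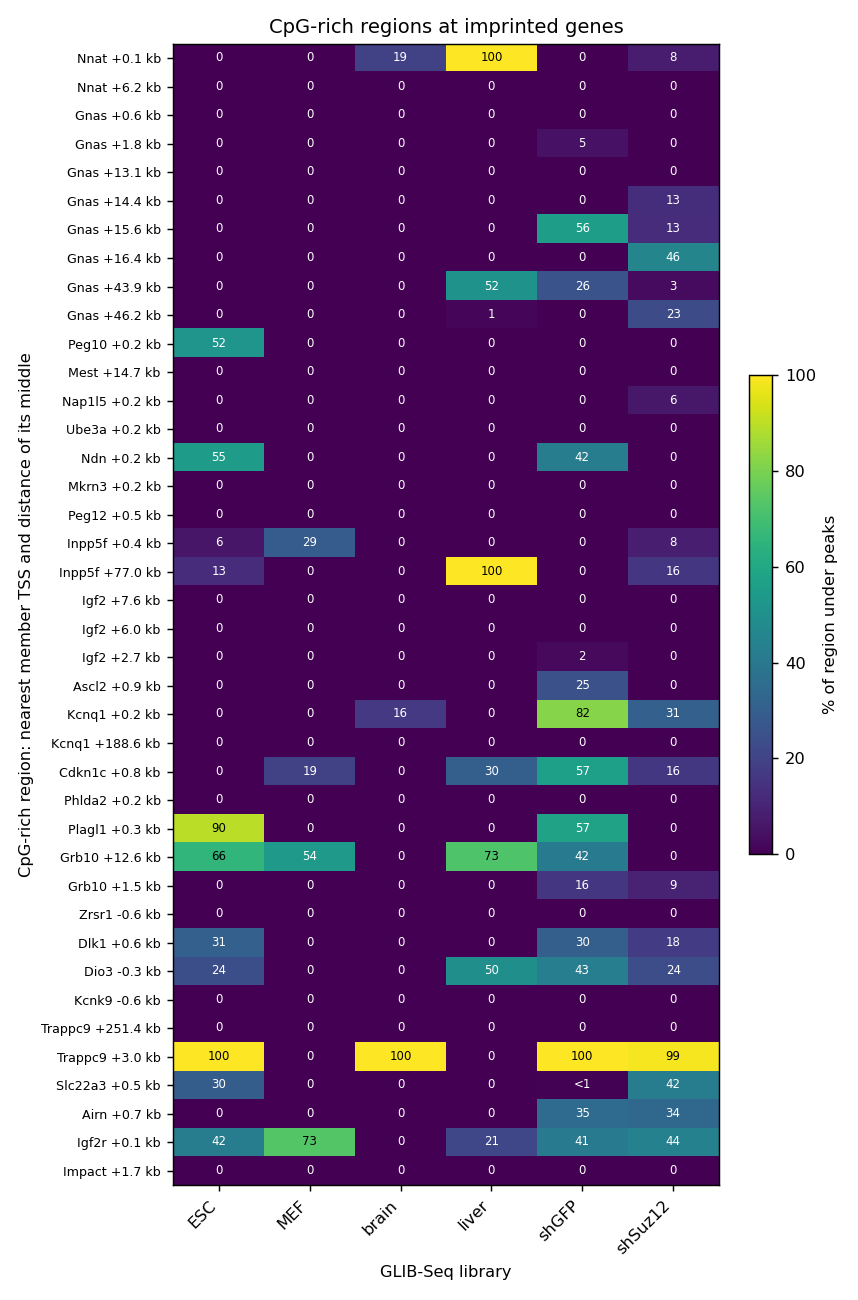
Percent of each of the 40 CpG-rich regions near members that lies under peaks, with regions in rows (the nearest member and the distance of the region's middle from its TSS in kb) and the 6 libraries in columns. Of the regions, 15 hold 0 in all libraries, and a Trappc9 region near the start is covered over 100% in ESCs, brain and shGFP and not at all in MEFs and liver.

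Annotated starts do not always match the known promoters of these genes. RefSeq gave 46 starts for 31 of the genes, Kcnq1ot1 included, all of which matched mm9 exactly, and 21 lay over 100 bp from the annotated TSS. A peak lay within 1 kb of 14 of them in ESCs, 10 in MEFs, 5 in brain, 9 in liver, 16 in shGFP and 19 in shSuz12. No library had a peak near 19 of them, among which were all 4 starts of Snrpn, the germline-methylated starts of Mest and Peg3 and those of Usp29 and Zrsr1. Some starts of a gene nearly coincide, as in Mest and Gnas, so that the same window can count more than once. The share over all RefSeq starts was not computed, so that these counts cannot be read as particular to the members.

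Between cell types a gene was taken as higher in a library if its covered share, divided by that of the genome, was at least 2 times that in the other library, with at least 500 bp covered. This is a rule of size and not a test, and the 4 comparisons with ESCs share the ESC list. ESCs were higher than MEFs in 6 members (23.4% of all genes) and lower in 8 (9.3% of all genes). Igf2, Ndn, Magel2, Dio3, Peg10 and Kcnk9 were the 6, and H19, Cdkn1c, Peg3, Zim1, Igf2r, Slc22a2, Slc22a3 and Sgce the 8. A TSS peak was found in ESCs and not in MEFs in 11 members (14.1% of all genes), and in MEFs and not in ESCs in 4 (11.9%), which were Zim1, Mest, Gnas and Slc22a2. Of these 4 only the Mest peak (score 107) reached the lowest score of the ESC list.

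Against brain and liver, ESCs were the higher library more often than the lower. ESCs were higher than brain in 12 members (16.9% of all genes) and lower in 4 (10.1%), which were Ube3a, Impact, Slc22a3 and Inpp5f. The highest brain score was 37.8 in Ube3a, 67.08 in Impact and 61.68 in Slc22a3. Peaks of this strength could not be listed in ESCs, where the list ends at 80. With a common score of at least 80 ESCs were higher than brain in 18 members and lower in 0. The share of all genes was not computed at that score. ESCs were higher than liver in 17 members (18.3% of all genes) and lower in 4 (13.9%), which were Cdkn1c, Ube3a, Nnat and Inpp5f. H19, Igf2, Zim1, Ndn, Magel2, Dlk1, Meg3, Rian, Mirg and Peg10 were higher in ESCs than in either tissue. A TSS peak was present in ESCs and absent in brain in 12 members (16.7% of all genes) and absent in liver in 11 (15.8%), while 3 had a TSS peak in brain and not in ESCs (6.93%) and 2 in liver and not in ESCs (11.8%), Nnat and Slc38a4. In Cdkn1c, Plagl1, Ndn, Dlk1 and Slc22a3, that is 5 members against 4.53% of all genes, both ESCs and shGFP had a TSS peak and MEFs, brain and liver had none. Within the gene span Igf2, Dlk1 and Peg10 held a peak in the 3 ESC libraries and MEFs and none in brain and liver (1.33% of all genes), although the brain peak upstream of Igf2 reached its TSS window.

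The tissues also differed from each other. Brain was higher than liver in 8 members (13.4% of all genes), namely Peg3, Mest, Plagl1, Impact, Slc22a2, Sgce, Kcnk9 and Trappc9. Liver was higher than brain in 6 (16.2%), namely Cdkn1c, Ube3a, Rian, Dio3, Nnat and Slc38a4. The highest brain score was 31.63 in Peg3, 52.15 in Plagl1, 67.08 in Impact, 74.64 in Slc22a2 and 37.71 in Kcnk9. Peaks of this strength could not be listed in liver, where the list ends at 80. With a common score of at least 80 brain was higher in 3 members and liver in 9, and the share of all genes was not computed at that score. A TSS peak was found in brain and not liver in Igf2, Kcnq1 and Slc22a2 (8.68% of all genes) and in liver and not brain in Dio3, Igf2r and Slc38a4 (14.4%). Of all bases in member spans covered in any of the 4 cell types, 55.8% were covered in 1 and 4.13% in all 4, against 53.3% and 4.85% over all genes.

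With shSuz12 a TSS peak of shGFP was absent in Cdkn1c, Plagl1 and Ndn, that is in 3 of 38 members against 10.5% of all genes. These shGFP peaks had scores of 69.6 and 126 in Cdkn1c, 58.4 in Plagl1 and 216 in Ndn. Each of these genes also had a TSS peak in untransfected ESCs. In Cdkn1c the shGFP peak of score 126 ran from -1372 to -770 bp. Inside it shSuz12 had a peak from -1353 to -1053 bp (score 65.4), just outside the TSS window. Conversely, 4 members had a TSS peak in shSuz12 and not in shGFP, against 6.02% of all genes: Mirg (score 49.8), Nnat (38.8), Nap1l5 (37.0) and Slc38a4 (45.3). All 4 are weaker than 50.02, where the shGFP list ends, so that peaks of this strength could not be listed there.

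Over gene spans shGFP was higher than shSuz12 in 6 members (8.11% of all genes), and shSuz12 higher in 5 (6.98%). With a common score of at least 80 these counts were 12 and 3, and with the 50% of peaks of highest score 4 and 1. A score of at least 80 kept 74496 of 132996 peaks in shGFP and 23594 of 138705 in shSuz12. The shares of all genes were not computed at these choices, so that the counts cannot be read as particular to the members. The 6 were Igf2 (22.6% of the span against 3.55%), Cdkn1c (68.3% against 18.99%), Ascl2 (33.8% against 0%), Ndn (58.4% against 0%), Impact (3.55% against 0%) and Kcnk9 (1.58% against 0%). The 5 were Peg3 (0% of the span in shGFP against 1.95%), Zim1 (0% against 3.07%), Nnat (0% against 23.2%), Peg10 (6.38% against 10.4%) and Nap1l5 (0% against 29.4%). Of these 5 only Peg10 had a shSuz12 peak with a score over the lowest score of the shGFP list (90.4). Grb10, Meg3, Slc38a4, Slc22a3 and Airn had nearly the same relative coverage in both, with ratios of shSuz12 over shGFP of 0.997, 1.03, 0.969, 1.12 and 1.11.

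ESCs and shGFP, libraries of the same line without a Suz12 hairpin, also differed. ESCs were higher in 5 (8.68% of all genes), which were H19, Peg3, Zim1, Slc22a2 and Peg10, and shGFP in 3 (4.52%), which were Cdkn1c, Ascl2 and Dio3. A TSS peak was found in ESCs and not in shGFP in H19, Rian, Sgce, Peg10 and Nap1l5 (9.44% of all genes) and in shGFP and not in ESCs in Grb10 and Airn (4.63%). These comparisons share the shGFP list with the comparison of shSuz12, so that Cdkn1c, Ascl2, Peg3, Zim1 and Peg10 stand apart in shGFP in both. In these 5 genes the covered shares in ESCs, shGFP and shSuz12 were 0%, 68.3% and 18.99% in Cdkn1c, 0%, 33.8% and 0% in Ascl2, and 2.58%, 0% and 1.95% in Peg3. They were 3.78%, 0% and 3.07% in Zim1 and 27.1%, 6.38% and 10.4% in Peg10. Igf2, Ndn, Nnat, Impact, Kcnk9 and Nap1l5 passed the rule over gene spans between shSuz12 and shGFP and did not pass it between ESCs and shGFP.

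Exons of the members were covered more than their introns in 5 of the 6 libraries. The ratio of the covered shares was 2.24 in ESCs, 1.37 in MEFs, 0.952 in brain, 1.51 in liver, 2.40 in shGFP and 2.47 in shSuz12, against 2.48, 1.17, 1.60, 1.80, 2.58 and 2.49 over all genes. In brain the members' exons were covered over 13.8% and their introns over 14.6%, whereas over all genes the values were 20.5% and 12.8%. Bases were pooled over members, so that long genes weigh most. Trappc9 alone holds 471584 of the 2070072 bp and had 122012 bp covered in brain, and the ratio without it was not computed.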

How the data were processed

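GLIB-Seq peaks of 6 mouse libraries were analysed, 1 for each condition, and samples were grouped by their titles. The authors mapped reads to mm9 with Bowtie (0.12.7), keeping unique hits, collapsed duplicates and called peaks per library with MACS (1.4.1). Each deposited score is the authors' MACS value, read here as 10 times the negative log10 of the p-value. Thresholds and controls of the lists are not given in the sources used here, and a lower threshold or deeper sequencing both lengthen a list.

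Peaks were compared with GENCODE M1 on NCBIM37 (mm9). Members were matched by symbol. Percent covered is the bp of a gene span (first to last annotated base) under peaks, and TSS windows were 1 kb on each side. A difference between libraries means a 2-fold ratio of percent covered, each divided by the genome's percent, with at least 500 bp covered, or a TSS peak in 1 library only. Shares have Clopper-Pearson 95% intervals. With 1 library per condition no test between conditions was made. Promoter sequences are from RefSeq (GRCm38.p6 tables), matched to mm9 over 300 bases, and other sequences are from the NCBIM37 genome.

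The members, loci and lists were chosen with earlier results of these data known. Every member found is accounted for, and the values in all 6 libraries are given for members with a germline-methylated promoter, with the widest range among cell types, with a TSS peak in all libraries or with a difference between shGFP and shSuz12. Alternatives were other windows, overlaps and folds, a common score of at least 80, the 50% of peaks with the highest scores, protein-coding members only, and every transcript start. Python 3.11.15, numpy 2.4.6, pandas 2.3.3, scipy 1.17.1, pysam 0.24.0 and matplotlib 3.10.9 were used, and the steps were tested on simulated peaks.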

Additional observations from a re-analysis of the deposited data

How the results depend on the processing

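Of 234 values recomputed with another choice, 160 stayed within 1.5 times the value in the report and 74 did not, which follow. The cause was not tested, beyond the fewer peaks or wider windows that a choice itself brings. Shares of all genes were not recomputed with these choices. No paired analysis was possible because there was 1 library per condition, so none was left out either. The lists carry no read counts, so depth cannot be weighed, and scores below 80 exist in some lists only.

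With a common score of at least 80, members with a TSS peak were 4 in MEFs, 2 in brain, 6 in shGFP and 2 in shSuz12, and members with a span peak 10 in brain and 14 in shSuz12. The median covered share was 6.09% in MEFs, 0% in brain, 3.51% in shGFP and 0% in shSuz12. CpG-rich regions with a peak were 9 in shGFP and 3 in shSuz12, and 6 loci of shSuz12 were above the genome. Members past the fold were 0 for brain over ESCs, 3 for brain over liver, 12 for shGFP over shSuz12, 3 for shSuz12 over shGFP and 8 for ESCs over shGFP. TSS peaks in the first library only numbered 1 in MEFs against ESCs, 1 in brain against ESCs, 1 in brain against liver, 5 in shGFP against shSuz12, 1 in shSuz12 against shGFP, 9 in ESCs against shGFP and 1 in shGFP against ESCs.

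With the 50% of peaks of highest score, members with a TSS peak were 8 in ESCs, 3 in brain, 1 in liver, 6 in shGFP and 2 in shSuz12. The median covered share was 4.12% in ESCs, 6.99% in MEFs, 0% in brain, 2.89% in shGFP and 0.411% in shSuz12, and CpG-rich regions with a peak were 7 in ESCs, 7 in shGFP and 5 in shSuz12. Members past the fold were 13 for MEFs over ESCs and 1 for shSuz12 over shGFP. TSS peaks in the first library only numbered 7 in ESCs against MEFs, 6 in ESCs against brain, 1 in brain against ESCs, 1 in liver against ESCs, 0 in liver against brain, 5 in shGFP against shSuz12, 1 in shSuz12 against shGFP, 3 in ESCs against shGFP and 1 in shGFP against ESCs.

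With windows of 2 kb, members with a TSS peak were 13 in MEFs, with 9 in brain and 8 in liver, and those with one in the first library only 5 in brain against ESCs, 6 in shGFP against shSuz12 and 4 in shGFP against ESCs. With windows of 500 bp they were 4 in MEFs and 7 in shSuz12, and with every transcript start 13 in MEFs, 12 in brain, 8 in liver and 17 in shGFP. An overlap of at least 200 bp left 1 CpG-rich region in brain and 9 in shSuz12, and 3 members with a TSS peak in ESCs and not shGFP and 4 the other way. With a 3-fold rule 3 members were higher in MEFs than ESCs and 2 in brain than ESCs. With at least 1000 bp covered, 2 members were higher in shGFP than shSuz12, 1 in shSuz12 than shGFP and 2 in ESCs than shGFP, and without division by the genome's percent 10 in ESCs than shGFP. Among protein-coding members the median covered share was 3.95% in ESCs and 0% in brain, and without the TSS window it was 2.18% in brain.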

Other observations

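Other imprinted genes, not among those above, were looked up by a second list of 34 symbols, and 32 were found. A TSS peak was present in 9 of them in ESCs, 12 in MEFs, 8 in brain, 7 in liver, 12 in shGFP and 7 in shSuz12, and a peak in the gene span in 25, 29, 24, 24, 26 and 27. As percent of the 32, the TSS counts were 28.1%, 37.5%, 25%, 21.9%, 37.5% and 21.9%. Among all genes 29%, 26.7%, 19.2%, 25%, 24.2% and 19.7% had a TSS peak. A span peak was found in 50.2%, 44.8%, 44%, 41.9%, 45.9% and 45% of all genes. The 32 are long, with a median of 38871.5 bp against 5384 bp over all genes, and span counts were not matched for length. The median covered share of the 32 was 6.00% in ESCs, 8.502% in MEFs, 8.66% in brain, 5.80% in liver, 4.57% in shGFP and 3.18% in shSuz12.

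Of 8 genes known to protect methylation imprints in the embryo or to act at them (Zfp57, Trim28, Dppa3, Ctcf, Ctcfl, Smchd1, Setdb1 and Zfp42), a TSS peak was found in 2 in ESCs, 2 in MEFs, 0 in brain, 3 in liver, 3 in shGFP and 2 in shSuz12, and a peak in the gene span in 7, 6, 6, 6, 7 and 7. The shares of all genes given for the second list apply here too, and the 8 genes had a median length of 18929.5 bp. No difference between libraries was tested for either list.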
